A study of Mus musculus with 12 samples.

Results

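The 10 genes described here form the core of the mammalian circadian clock and its best known output: Clock and Arntl (also called Bmal1), Per1, Per2, Per3, Cry1, Cry2, Nr1d1, Nr1d2 and Dbp. Their peaks of N6-methyladenosine (m6A, a methyl mark on adenosines in mRNA) were taken by gene name from the peak list of WT hippocampus, from that of Tyrobp-/- hippocampus and from the deposited table that compares the genotypes. Of the 33622 peaks in the WT list, 12 carried one of these names, in 7 of the 10 genes. Of the 34935 peaks in the Tyrobp-/- list, 15 did, in 8 of the 10 genes, and the comparison table held 3 such rows of 5640. Cry1 and Per3 had no row in either list or in the table. A missing row means that no peak was listed under that name, not that the mRNA lacked the mark.

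MeRIP-seq sequences RNA fragments pulled down with an m6A antibody (IP) beside the same RNA without pull-down (input). The animals were male mice on a C57BL/6 background, 6 months old, kept on a standard light and dark cycle, and were either Tyrobp-/- or their WT littermates. The knockout animals carried a TALEN-made deletion of a few bases in the second exon of Tyrobp, which encodes a signalling adaptor of microglia, and the labels name no other allele or agent. Each genotype had 3 samples, each pooled from the hippocampi of 3 mice, and with IP and input sequenced apart there were 12 libraries. The hour of tissue collection is not given in the labels or methods, and in tissue that follows a daily rhythm the genotype and the hour cannot be told apart where the hours differed.

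The clock is a transcriptional feedback loop. The proteins CLOCK and ARNTL pair and switch on the Per and Cry genes, whose proteins then return to the nucleus and hold CLOCK and ARNTL back. NR1D1 and NR1D2 (REV-ERB alpha and beta) repress Arntl, and DBP carries the rhythm to other genes. The loop runs in most tissues, the hippocampus included, and is set by the suprachiasmatic nucleus of the hypothalamus. m6A sits mainly near stop codons and in 3′ UTRs, in short motifs with a central A followed by C, and is known to affect how mRNA is processed, translated and degraded. Loss of the writer METTL3 is known to lengthen the clock period.

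The Dbp and Nr1d2 peaks at the 5′ end, and one peak at the 5′ end of the Per3 locus, reached into the RefSeq windows around transcription starts. Up to 30 transcribed bases under those peaks are shown because these 5′ peaks hold the largest ratio between the genotypes at Nr1d2 and one of the lowest ratios at Dbp. Capitals mark an m6A motif, and the sequences are on the transcript strand, from RefSeq on GRCm38.p6. Transcribed bases are counted from the transcription start of the window, at 45705247 for Dbp, 18239106 for Nr1d2 and 151044665 for Per3. Other annotated starts lie further 5′, at 45705088 for a Dbp transcript, 18239127 for an Nr1d2 transcript and 151044707 for the RefSeq Per3 gene.
Dbp, chr7:45705267-45705296, plus strand, transcribed bases 21 to 50: gtgcaaaattggctagagccagAGACTcgc
Nr1d2, chr14:18239077-18239106, minus strand, transcribed bases 1 to 30: ggagaggaggagcgggcggcctgaggagga
Per3, chr4:151044616-151044635, minus strand, transcribed bases 31 to 50: tctgcggggcggcggcgagt
Forms of the m6A motif were searched on the transcript strand alone, since RNA was measured. Among the first 50 transcribed bases of 32851 RefSeq windows, 5.76% held GGACT, 5.40% held GGACA, 5.13% held GGACC, 5.14% held AGACT and 4.40% held GAACT, and 23.5% held at least one of them. For 9 of the 10 genes, all but Per2, there were 13 windows in all. Of these 13, 4 held a motif in their first 50 transcribed bases, each in another gene: Dbp (AGACT from base 43), Per3 (AGACT from base 2 and GGACT from base 7, side by side without overlap), Clock (GGACT from base 45) and Cry1 (GGACC from base 23). The Dbp motif lay under the peak of both genotypes. The Per3 motifs lay outside the peak there, which began at base 31 as counted from the start in that window. A match is a description of the letters and not a methylated site.

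Each peak has one fold enrichment of IP over input per genotype, called by the authors on the 3 replicates together. No spread between replicates exists for any value below, so no difference between genotypes was tested, and no error is given for a fold enrichment. The WT and Tyrobp-/- peaks were paired where they were each other's best overlap over exonic bases. Over all genes, 23672 pairs were found. All 12 WT peaks of the clock genes had a partner in the Tyrobp-/- list. Of all WT peaks, 29.6% had none. The 0 of 12 came from 7 genes, some with several peaks, and was not tested against that share. Of the 15 Tyrobp-/- peaks, 3 had no partner (20%), against 32.2% of all Tyrobp-/- peaks. The paired peaks were nearly the same intervals in both genotypes. Their starts differed by at most 60 bases, and 11 of 12 differed by at most 90 bases at the end. The paired peaks covered 5275 exonic bases in WT and 5604 in Tyrobp-/- mice, and with the 3 unpaired peaks the Tyrobp-/- total was 5877.

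**Figure D1:**
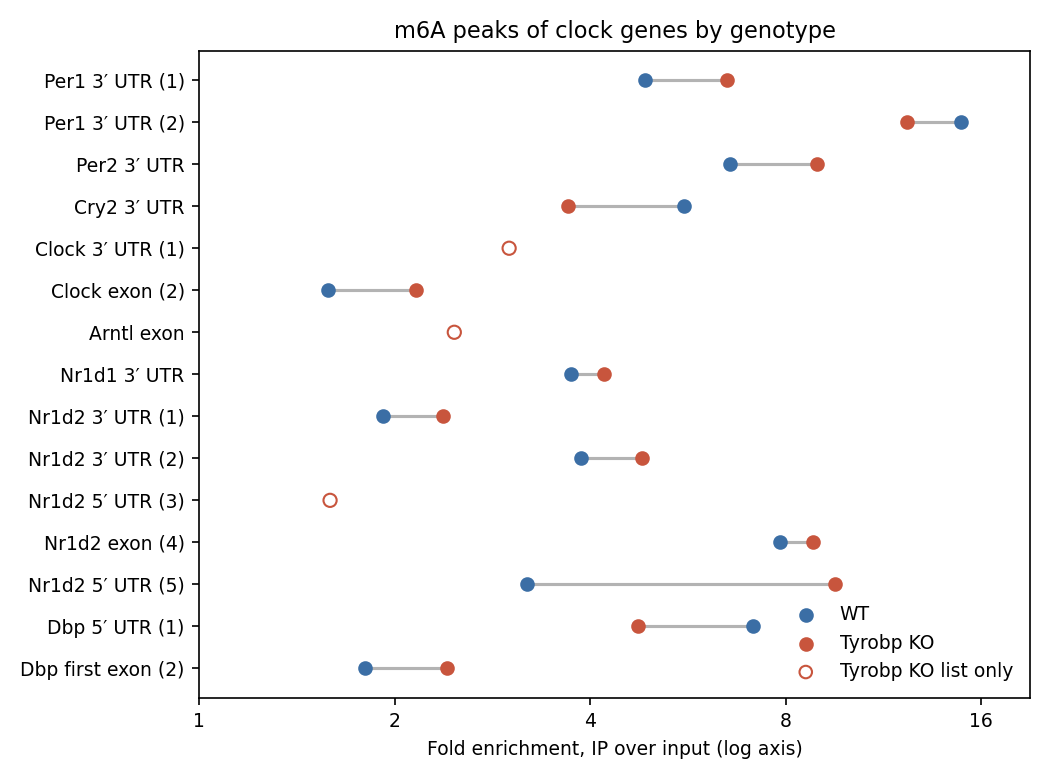
Fold enrichment of IP over input (log axis) at each m6A peak of the clock genes, with the WT value in blue and the Tyrobp-/- value in red, joined where the peaks pair. Open circles are the 3 peaks listed for Tyrobp-/- mice alone, numbers in brackets tell apart peaks of one gene in order of genome position, and no error bar exists because each value comes from pooled replicates. The red point lies to the right in 9 of 12 pairs, with the widest gap at the 5′ UTR of Nr1d2.

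Enrichment was higher in Tyrobp-/- mice at 9 of the 12 clock gene pairs and lower at 3. Over all pairs, 53.6% were higher in Tyrobp-/- mice. The median ratio of Tyrobp-/- over WT was 1.24 at the clock genes (log2 0.31) and 1.03 over all pairs (log2 0.05), where the middle 50% ran from 0.821 to 1.31. A ratio of 2 or more was reached by 1 clock gene pair, at Nr1d2, against 6.91% of all pairs. No clock gene pair was 2-fold lower in Tyrobp-/- mice, against 6.00% of all pairs. At a ratio of 1.5 the count stayed at 1 pair higher (16.0% of all pairs) and came to 2 pairs lower, at Cry2 and Dbp (13.1% of all pairs). In bulk tissue, fewer cells of a type and less RNA per cell cannot be told apart, and enrichment over input was not tested against a change in mRNA level. The pairs of Nr1d2 share one mRNA, as do those of Per1 and of Dbp, so the 12 pairs are not independent.

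**Figure D2:**
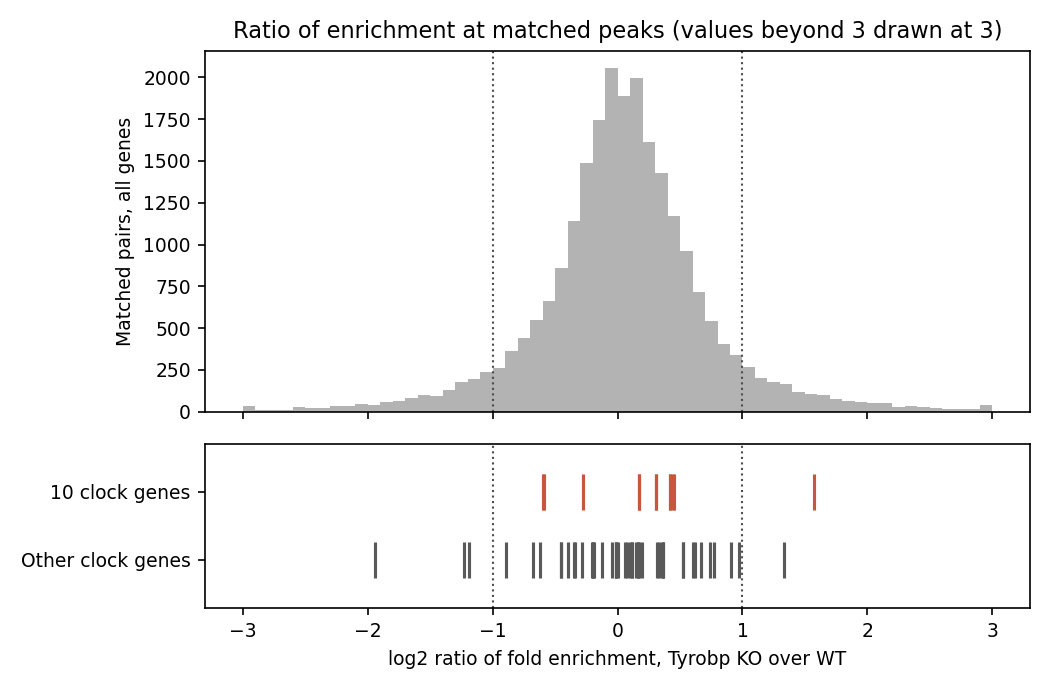
The upper panel counts the 23672 matched pairs of all genes by the log2 ratio of fold enrichment, Tyrobp-/- over WT, and the lower panel marks each pair of the 10 clock genes (red) and of the other clock genes (grey) on the same axis. Dotted lines stand at a 2-fold ratio. Of the red marks, 1 lies beyond a dotted line, while 9 of 12 lie to the right of 0.

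Clock and Arntl, the activators, had the lowest fold enrichments at their strongest peaks. In the WT list Clock had 1 peak, in its last exon (exon 23 of 23), at chr5:76216731-76216821 on the minus strand. It was enriched 1.58-fold in WT and 2.16-fold in Tyrobp-/- mice, a ratio of 1.37 (log2 0.45). The Tyrobp-/- partner, at chr5:76216671-76216791, shared 61 bases with it and was annotated to the 3′ UTR, so the region names of the pair differ although the sites overlap. The Tyrobp-/- list also held a Clock peak of 91 bases further into the 3′ UTR, at chr5:76212325-76212415, 2457 bases from the end of the transcript, enriched 3.00-fold (log10 FDR -22.0). Arntl had no row in the WT list. Its one peak in Tyrobp-/- mice covered 61 bases of the last exon (exon 20 of 20), at chr7:113313557-113313617, 509 bases from the end of the transcript, and was enriched 2.47-fold (log10 FDR -21.4). Over all genes, the Tyrobp-/- peaks without a WT partner had a median enrichment of 4.39, above both values. Absence from the WT list means that no peak was called at these sites on the pooled WT libraries, and it was not tested as a difference between genotypes.

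The Per and Cry genes encode the repressors that close the loop. Per1 held the strongest peak of the set, across 3 exonic blocks that end in the 3′ UTR, at chr11:69108033-69109541 in WT and up to 69109571 in Tyrobp-/- mice. It was enriched 14.9-fold in WT and 12.3-fold in Tyrobp-/- mice, a ratio of 0.826 (log2 -0.28), and in both lists its FDR was written as 0. A second Per1 peak lay further 5′ in the gene, at chr11:69105842-69106291, in the 3′ UTR of a shorter transcript that ends at 69106458. It went from 4.85-fold in WT to 6.49-fold in Tyrobp-/- mice, a ratio of 1.34 (log2 0.42). The peaks of Per1 thus had ratios on opposite sides of 1, within one gene. Per2 had one long peak of 1704 exonic bases in WT and 1674 in Tyrobp-/- mice, in 2 blocks ending in the 3′ UTR, at chr1:91416430-91419487 on the minus strand. It was enriched 6.57-fold in WT and 8.94-fold in Tyrobp-/- mice, a ratio of 1.36 (log2 0.44). The FDR was written as 0 in WT, and the log10 FDR was -251 in Tyrobp-/- mice. Cry2 had one peak at the very end of its 3′ UTR, at chr2:92403646-92403886 on the minus strand, whose last base is the last base of the transcript. It was enriched 5.58-fold in WT and 3.69-fold in Tyrobp-/- mice, a ratio of 0.661 (log2 -0.60), the lowest of the 12 pairs and at percentile 12.9 of all pairs. Its log10 FDR was -54.9 in WT and -68.4 in Tyrobp-/- mice, so the support was not weaker where enrichment was lower. The ratios at Cry2 and Per2 lay on opposite sides of 1, and both fell outside the middle 50% of all pairs.

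Cry1, on chromosome 10 from 85131700 to 85185054 in RefSeq, had no peak of any name inside its span in either list. Per3 had none under its own name, but its RefSeq span (chr4:150997018-151044707) held 2 peaks in the WT list and 5 in the Tyrobp-/- list under the name Camta1, a neighbouring gene. The files give these peaks a Camta1 transcript from 150917322 to 151861669, which takes in all of Per3, whereas the RefSeq Camta1 gene lies from 151059523 to 151861768, outside Per3. All 7 peaks were put on the minus strand, that of Per3 in RefSeq. One of the 5 Tyrobp-/- peaks also overlapped Uts2, a gene inside the Per3 span. A single pair was formed, between chr4:151005148-151008254 in WT and chr4:151005089-151005897 in Tyrobp-/- mice, enriched 4.59-fold and 4.91-fold, a ratio of 1.07 (log2 0.10). Its log10 FDR was -113 in WT and -121 in Tyrobp-/- mice, so it was among the well supported peaks. The other WT peak there, at chr4:151012139-151012199, was enriched 6.35-fold (log10 FDR -1.73). The Tyrobp-/- peaks without a partner were enriched between 1.71-fold and 11.4-fold. The peaks at both ends of this range were weak calls, with a log10 FDR of -1.1 and -2, and the 11.4-fold peak is the one that overlaps Uts2. Of the other unpaired peaks, the one at chr4:151003652-151003981 was enriched 5.40-fold with a log10 FDR of -32.5. The peak at the 5′ end shown above was enriched 6.67-fold with a log10 FDR of -0.538, a weak call. Whether these peaks belong to Per3 or to a long Camta1 transcript cannot be told apart from the lists, and they are not counted among the 12 and 15.

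**Figure D3:**
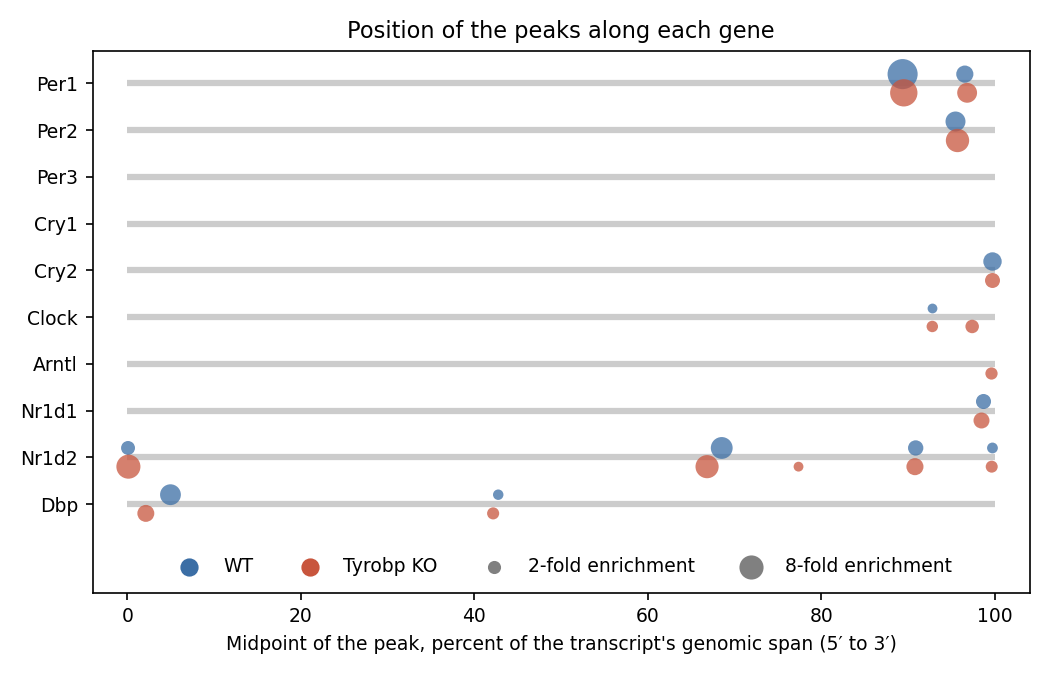
Midpoint of each peak along the genomic span of its annotated transcript, in percent from the 5′ to the 3′ end (x axis), for WT (blue) and Tyrobp-/- (red) mice, with the area of a point in proportion to its fold enrichment. Of the points, 8 in WT and 10 in Tyrobp-/- mice lie in the last 11% of the span, and Per3 and Cry1 are empty because no peak carries their name. The span includes introns, and the share of all peaks in that part of their transcripts is not given here. The Dbp peak at the 5′ end is placed on different annotated transcripts in WT and Tyrobp-/- mice.

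The nuclear receptors NR1D1 and NR1D2 form the second loop. Nr1d2 was the gene with most peaks, 4 in WT and 5 in Tyrobp-/- mice, spread from its first to its last base. At least 4 peaks were listed for 13.9% of the genes with a peak in WT, and at least 5 for 7.39% of those with a peak in Tyrobp-/- mice. All 4 WT peaks had higher enrichment in Tyrobp-/- mice. The strongest in WT, in exon 5 of 8 at chr14:18214757-18215445 on the minus strand, went from 7.85-fold to 8.82-fold, a ratio of 1.12 (log2 0.17). Its Tyrobp-/- partner covered 778 exonic bases against 689. It ran on into exon 4, which put its end 1215 bases away on the genome but added 59 exonic bases, and the other 30 lay at the opposite end. In the 3′ UTR, the peak at chr14:18206564-18207959 went from 3.87-fold to 4.80-fold, a ratio of 1.24 (log2 0.31). The peak on the last bases of the transcript, at chr14:18204054-18204263, went from 1.92-fold to 2.37-fold, a ratio of 1.23 (log2 0.30). These ratios were alike in size, and each lay inside the middle 50% of all pairs.

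The 5′ peak of Nr1d2 stood apart. It began on the first base of the annotated transcript, which lies upstream of the start used to count the bases shown above. The peak covered 61 bases in WT (chr14:18239067-18239127) and 91 in Tyrobp-/- mice (chr14:18239037-18239127), and went from 3.20-fold to 9.53-fold. The ratio of 2.98 (log2 1.57) was at percentile 97.4 of all pairs. It was also the least supported of the Nr1d2 pairs, with a log10 FDR of -2.93 in WT and -5.56 in Tyrobp-/- mice, and it did not overlap a row of the comparison table. Pairs in which the shorter peak covered at most 100 exonic bases passed 2-fold in either direction in 22.9% of 2191 cases, against 11.9% of 21481 longer pairs, and were 2-fold higher in Tyrobp-/- mice in 11.8% and 6.41%. The part of peak length in this ratio was not tested. The fifth Tyrobp-/- peak, of 121 bases at chr14:18211937-18212057, was enriched 1.59-fold (log10 FDR -6.78). It was annotated as 5′ UTR, although it lay 27070 bases from the start of the transcript given in the same row.

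Nr1d1 had one peak on the last bases of its 3′ UTR, at chr11:98767932-98768141 on the minus strand in WT and up to 98768171 in Tyrobp-/- mice. It was enriched 3.73-fold in WT and 4.20-fold in Tyrobp-/- mice, a ratio of 1.13 (log2 0.17). The whole peak lay where Nr1d1 overlaps Thra, which encodes a thyroid hormone receptor and runs on the opposite strand to 98769006. The libraries were prepared with dUTP in the second strand and UDG digestion, which keeps strand, but whether the counting used it is not stated in the sources used here. The peak values alone do not show which of the overlapping genes the reads came from. The 3′ peaks of Nr1d1, Nr1d2 and Cry2 all reached the last annotated base of their transcripts, in both genotypes.

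Dbp encodes a PAR bZIP transcription factor whose mRNA is among the most rhythmic known. Its stronger peak lay at the 5′ end in both genotypes, over the start of transcription and the bases shown above, at chr7:45705088-45705597 in WT and chr7:45705118-45705627 in Tyrobp-/- mice. Both intervals covered 510 bases, of which 480 were shared. Enrichment went from 7.13-fold in WT to 4.73-fold in Tyrobp-/- mice, a ratio of 0.663 (log2 -0.59), at percentile 13.0 of all pairs. The FDR was written as 0 in both lists. A weaker peak at chr7:45707215-45707334, listed as the first exon of another transcript, went the other way, from 1.80-fold to 2.41-fold, a ratio of 1.34 (log2 0.42). At its 3′ end Dbp overlaps Sphk2 on the opposite strand, and the lists name the peaks there Sphk2. Their one matched pair went from 2.28-fold in WT to 1.84-fold in Tyrobp-/- mice, a ratio of 0.807 (log2 -0.31). As at Nr1d1, whether strand was used for those peaks is not stated.

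Against all genes with a peak, most clock genes stood below the middle. The strongest peak of a gene had a median of 8.01-fold over 15781 genes in WT and 8.17-fold over 16146 genes in Tyrobp-/- mice. Among the clock genes the median of the strongest peaks was 6.57-fold over 7 genes in WT and 4.46-fold over 8 genes in Tyrobp-/- mice. The second median includes Arntl, which the first does not. Of the clock genes, 1 in WT and 3 in Tyrobp-/- mice stood above the median of all genes. Per1 ranked highest, at percentile 82.9 in WT and 73.0 in Tyrobp-/- mice. Nr1d2 followed, from 49.4 to 60.5, and then Dbp, from 43.2 to 24.3, and Per2, from 36.9 to 55.6. Cry2 went from 30.8 to 16.9 and Nr1d1 from 17.9 to 20.8. Per2 and Dbp thus exchanged places between the genotypes, as did Cry2 and Nr1d1. Clock stood at 1.17 in WT and 11.5 in Tyrobp-/- mice, and Arntl at 7.09 in Tyrobp-/- mice. The ranks of Clock and Nr1d2 rest on different peaks in the genotypes. For Clock the Tyrobp-/- rank is that of the unpaired peak at 3.00-fold, while the partner of the WT peak stood at 2.16-fold. For Nr1d2 it passed from the peak in exon 5 to the 5′ peak with its weaker support. These ranks have no error, and neighbours in the order cannot be separated.

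**Figure D4:**
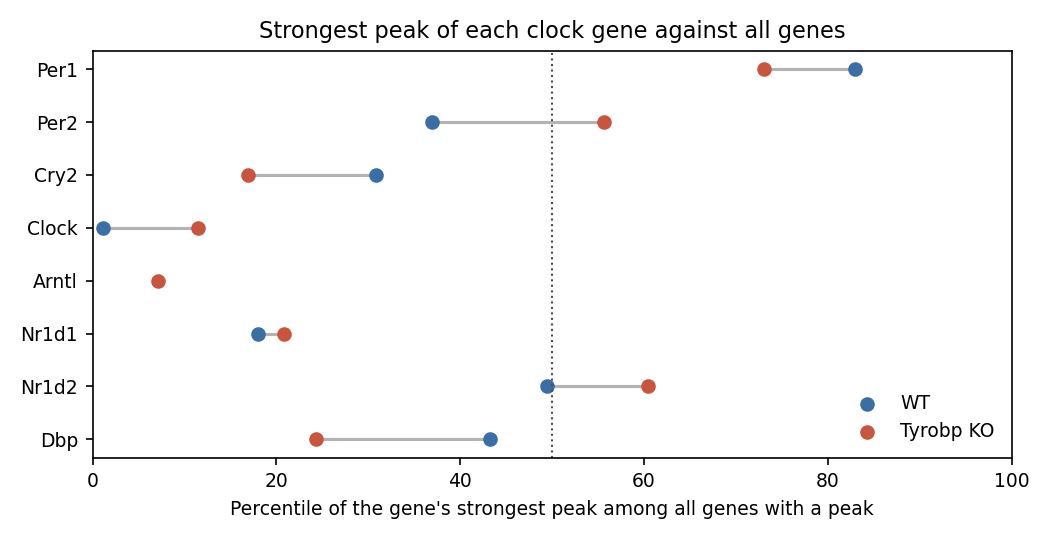
Percentile of each clock gene's strongest peak among all genes with a peak in the same list (x axis), WT in blue and Tyrobp-/- in red, with the dotted line at the middle of all genes. Per1 lies to the right of the line in both genotypes, Per2 and Nr1d2 cross it, and the other genes stay to its left.

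By annotation, 7 of the 12 WT peaks of the clock genes lay in the 3′ UTR (58.3%, exact 95% Clopper-Pearson interval 27.7% to 84.8%), against 47.2% of all WT peaks. In Tyrobp-/- mice 9 of 15 did (60.0%, 32.3% to 83.7%), against 49.3% of all. Both intervals cover counting error only and contain the share of all peaks, so no difference was detectable with so few peaks. The 5′ UTR held 2 of 12 peaks in WT, against 18.9% of all WT peaks. In Tyrobp-/- mice it held 3 of 15, against 17.3% of all. These clock gene peaks all lay in Dbp and Nr1d2.

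The comparison table, whose rule of entry is not given in the sources used here, held 1 row of Per1 (chr11:69105842-69106321) and 2 rows of Nr1d2 (chr14:18204054-18204323 and chr14:18206504-18208019). These rows overlap 3 of the 12 pairs (25.0%), against 15.5% of all pairs. All 3 lie in 3′ UTRs, and their ratios of enrichment were between 1.23 and 1.34. The pairs with ratios farthest from 1, at the 5′ end of Nr1d2, at Cry2 and at the 5′ end of Dbp, were not in the table.

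A further 28 genes of the clock, the kinases, ubiquitin ligases, ROR receptors and output factors that act on the core loop, were listed beside the 10. Of these, 25 had a peak in each list, with 64 peaks in WT and 62 in Tyrobp-/- mice. They formed 47 pairs, of which 25 were higher and 21 lower in Tyrobp-/- mice. The median ratio was 1.05 (log2 0.08), near the 1.03 of all pairs. A 2-fold ratio was passed upwards by 1 of the 47 pairs and downwards by 3, against 6.91% and 6.00% of all pairs. The pair that was higher belonged to Rora, a receptor that opposes NR1D1 and NR1D2 at the same DNA sites, and went from 18.1-fold to 45.7-fold, a ratio of 2.52. The lower ones were at Timeless, from 13.7-fold to 3.57-fold, at Ciart, a repressor of CLOCK and ARNTL, from 4.64-fold to 1.98-fold, and at Usp2, a deubiquitinase, from 11.1-fold to 4.86-fold. The Timeless and Ciart pairs were weak calls, with a log10 FDR of -3.78 in WT and -1.91 in Tyrobp-/- mice at Timeless and of -2.14 and -1.32 at Ciart. At Usp2, other pairs whose genomic spans overlap this one had ratios of 0.539 and 0.784, against 0.438 here. The Tyrobp-/- partner of that Ciart peak carried the name BC028528, and at Timeless and Usp2 other pairs of the same gene had ratios above 1. The other Rora pair was enriched 13.4-fold in both genotypes. The next largest ratios were at the 3′ UTR of Ciart and at the 5′ UTR of Bhlhe40, also a repressor of CLOCK and ARNTL. This Ciart pair went from 1.42-fold to 2.78-fold over 1 shared base. Its log10 FDR was -0.939 in WT, a weak call, and -7.12 in Tyrobp-/- mice. The Bhlhe40 pair went from 1.41-fold to 2.65-fold, with a log10 FDR of -4.26 in WT and -9.09 in Tyrobp-/- mice. Nampt and Prkaa2 had no peak, Arntl2 had peaks in Tyrobp-/- mice alone and Hlf, a relative of Dbp, in WT mice alone. Of the 5640 rows of the comparison table, 10 came from 9 of the 28 genes. The share of all genes with a row is not given here.

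The libraries held between 61189368 and 73554506 valid reads, and the depth behind a single peak is unknown. The share of G and C bases in the IP libraries ran from 49.16% to 50.24% in WT and from 48.46% to 49.33% in Tyrobp-/- mice, and from 47.59% to 48.00% in all inputs. Its part in the ratios was not tested. Tyrobp had no peak in either list, which checks nothing about the labels. Of 8 marker genes of hippocampal neurons, 6 had a peak in both lists, with none at Grik4 and Dock10, and 4 of 6 markers of microglia did, with none at Tyrobp and Trem2. All 4 markers of astrocytes and all 4 of oligodendrocytes did. Of 6 hypothalamic markers 4 had a peak in WT and 2 in Tyrobp-/- mice, with Oxt and Trh in WT alone and none at Pmch and Hcrt. By RNA level, the paper lists Pmch and Hcrt among the genes most upregulated in Tyrobp-/- mice. Of 6 markers of the suprachiasmatic nucleus 3 had a peak in each list, with Vip in WT alone, Six6 in Tyrobp-/- mice alone and none at Avp and Nms. A peak list shows marked mRNA and not its level, and the part of neighbouring tissue in the clock gene values was not tested.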

How the data were processed

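MeRIP-seq libraries of hippocampal poly(A) RNA from WT and Tyrobp-/- mice (3 IP and 3 input libraries per genotype) were used as processed by the authors. Per the labels and methods, reads were trimmed with fastp and aligned by HISAT2 to Ensembl release v96 of the mouse, peaks were called in exomePeak with the 3 replicates of a genotype pooled, ChIPseeker gave the annotation, and motifs were searched with HOMER; versions are not given in the sources used here. The authors deposited counts of raw and valid reads per library and the percent of valid, Q20, Q30 and GC bases. In each peak list the authors deposited the p-value, the log10 FDR and a fold enrichment, the ratio of IP to input. The table that compares the genotypes also holds the authors' log2 fold changes, p-values and FDR, which were not used, and its rows served only for position and name.

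Fold enrichments were compared as they stand. Peaks of both lists were matched over exonic blocks, with at least 1 shared base, where each was the other's best overlap. The ratio of Tyrobp-/- over WT was taken per pair, and a ratio of at least 2 was called. With 1 pooled value per genotype no test, SD or replicate check was possible. Shares have exact 95% binomial intervals (Clopper-Pearson). Gene spans, and windows from 250 bases before to 50 after the start, came from RefSeq (GRCm38.p6). No column of per-sample values was left unmapped (0). The members, the 28 further clock genes and the markers were chosen with earlier results of these data known. Named were all 10 members with every peak and, of the 28 genes, those past 2-fold and up to 3 with the largest and 3 with the smallest ratio; Nampt, Prkaa2, Arntl2 and Hlf fall outside this rule and were named after their values were seen. Alternatives were a stricter peak-calling FDR, a minimum enrichment, other overlaps, a ratio of 1.5, centring, and weighting by width. The matching was tested on simulated data. The computations ran in Python (version 3.11.15) with the packages pandas (version 2.3.3), numpy (version 2.4.6) and scipy (version 1.17.1), and figures were drawn with matplotlib (version 3.10.9).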

Additional observations from a re-analysis of the deposited data

How the results depend on the processing

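With only peaks at an FDR below 1e-05 in both lists, 9 pairs were left, of which 6 were higher in Tyrobp-/- mice, the median log2 ratio was 0.17 against 0.05 over all pairs, and the count of pairs at least 2-fold higher went from 1 to 0, since the 5′ pair of Nr1d2 was removed. Centred on the median of all pairs, the clock gene median was 0.26 and 9 of 12 pairs stayed above it. At a ratio of 1.5 the count of lower pairs went from 0 to 2. At an enrichment of at least 4, 6 peaks were left in WT and 8 in Tyrobp-/- mice. The median of the clock genes was 5.61-fold in WT and 4.16-fold in Tyrobp-/- mice as a mean weighted by exonic width, and 6.85-fold in WT for the strongest peak below that FDR. A reciprocal overlap of 50% and matching by genomic span each kept 12 pairs. Weighted by exonic width, 72.1% of the peak bases in WT and 70.4% in Tyrobp-/- mice lay in 3′ UTR peaks, within the intervals above for the share of peaks. The Per2 peak alone held 1704 of the 5275 WT bases. Among the ratios that could still be formed, none changed direction under the alternatives run. The stricter FDR also removed the Clock pair and the weaker Dbp pair, with a log10 FDR in WT of -4.31 and -4.06. Both were higher in Tyrobp-/- mice. The other overlaps kept the same pairs, so their ratios could not change. No paired analysis was possible because peak values were pooled over replicates, and leaving out each replicate could not be run for the same reason. The depth behind a peak is unknown, so small differences in enrichment could not be separated from noise.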

Other observations

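Some entries in the spans of the clock genes repeat each other. In the Dbp span the WT list holds Sphk2 peaks at chr7:45709646-45710095 and chr7:45709694-45710083, which overlap and were enriched 2.28-fold and 2.27-fold. The Tyrobp-/- list likewise holds overlapping Sphk2 entries, enriched 1.84-fold and 1.80-fold, beside one at chr7:45709467-45709557 enriched 3.18-fold with a log10 FDR of -0.822. At the 5′ end of Clock, the overlapping gene Gm7467 on the opposite strand had one peak in each list, enriched 3.71-fold in WT and 5.24-fold in Tyrobp-/- mice (log10 FDR -4.71 and -6.97). In the comparison table, 2 rows named Camta1 lie inside the Per3 span, at chr4:151003652-151003951 and chr4:151012498-151012588. The latter overlaps no peak of either list in the span.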
